A study of Mus musculus with 144 samples.

Results

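The nuclear genes of oxidative phosphorylation were taken as the protein-coding mouse genes whose symbols begin with *Nduf* and a subunit letter and number, *Cox4* to *Cox8*, *Uqcr* or *Atp5*, or read *Sdha*, *Sdhb*, *Sdhc* or *Sdhd*. This gave 86 of the 55359 genes in the count files, and 13 genes with such symbols but another biotype (processed pseudogenes in all but *Ndufb1-ps*) were left out. By symbol, 38 belonged to complex I, 4 to complex II, 8 to complex III, 18 to complex IV and 18 to complex V. They were chosen by symbol and not by their values, although earlier results of these data were known. *Ndufa4* was kept with complex I as its symbol says, although its protein is now known as a subunit of cytochrome *c* oxidase.

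RNA-Seq libraries came from primary hepatocytes of male C57BL/6NCrl mice aged 28 days, cultured on collagen and labelled wild-type (WT) or PkmΔDRE, in which the dioxin response element (DRE) of the *Pkm* locus was removed by genome editing. The cells received 10 nM TCDD, the dioxin that serves as the standard ligand of the aryl hydrocarbon receptor (AHR), or DMSO as the vehicle. They were collected at 9 times, early (2, 4, 8 and 12 h) or late (24, 48, 72, 96 and 120 h). There were 4 libraries for each of the 36 combinations of label, treatment and time. The labels name no replicate number, animal or isolation batch, so p-values measure the spread between these libraries, which may be technical.

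The respiratory chain lies in the inner mitochondrial membrane. Complex I (NADH dehydrogenase) and complex II (succinate dehydrogenase, also an enzyme of the TCA cycle) pass electrons to ubiquinone, complex III hands them on to cytochrome *c*, and complex IV reduces oxygen. Protons pumped on the way drive complex V, the ATP synthase. Complexes I, III, IV and V combine subunits encoded in the nucleus with a few encoded in mitochondrial DNA, whereas all subunits of complex II are nuclear. Hepatocytes rely on the chain for most of their ATP, and freshly isolated hepatocytes lose many functions of the liver as they are kept in culture.

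The libraries held between 13588848 and 30719161 read pairs on genes, with a median of 18011825, and the members took 0.666% to 1.49% of these counts, with a median of 1.02%. All 216 pairs of libraries within a group differed by more than sampling noise, with a chi-square per degree of freedom of 4.21 to 820. Unmapped pairs made up 1.96% to 23.6% of a library. In WT vehicle groups at 2, 4 and 8 h libraries 1 and 2 had 13.4% to 14.5% and libraries 3 and 4 had 8.07% to 9.62%. In WT TCDD groups at the same times libraries 1 and 2 had 10.43% to 23.6% and libraries 3 and 4 had 7.14% to 10.35%. Library numbers follow the order of deposit, however, and were not used as a block. *Cyp1a1*, the classical AHR target, rose with TCDD at 8 h in libraries of both labels, by 9.55 on the log2 scale in WT and by 10.45 in PkmΔDRE (edgeR, adjusted p = 9.33e-07 and 1.33e-08). Counts of *Pkm*, the gene the edit targets, leaned against the genotype labels; they do not separate its splice forms. At 8 h the libraries labelled WT held 89.5, 76.1, 62.8 and 45.5 CPM (counts scaled to the size of the library) with vehicle and 39.4, 50.2, 60.4 and 28.7 with TCDD, whereas those labelled PkmΔDRE held 51.1, 58.95, 41.2 and 89.99 with vehicle and 172.3, 120.1, 116.1 and 128.1 with TCDD. The groups labelled WT overlapped and those labelled PkmΔDRE did not, although neither difference passed the test (log2 fold change −0.49 and 1.24, adjusted p = 0.123 and 0.128). WT and PkmΔDRE therefore stand below for libraries so labelled. Summed CPM of 8 hepatocyte markers (*Alb*, *Apoa1*, *Ttr*, *Cps1*, *Hnf4a*, *Asgr1*, *Tat* and *Cyp2e1*) ran from 135100 to 173400 in WT vehicle libraries at 2 h, from 25000 to 37550 at 24 h and from 2769 to 15800 at 120 h, and no marker was at 0 in all libraries of a group. In such bulk samples, fewer cells of a type and less RNA per cell cannot be told apart.

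The sequence before the start of a gene is shown because TCDD acts through a receptor that binds a short DNA motif. Shown are members called in every setting tried at 8 h of TCDD in WT for which a RefSeq window was at hand. All of those shown fell. *Ndufs1*, which rose and was also called in every setting, had no window. RefSeq windows (assembly GRCm38.p6, an earlier build than the GRCm39 used for the counts) matched 69 of the 86 members. Letters run 5′ to 3′ on the strand of the gene and end at its annotated start. Capitals mark matches on either strand to the DRE core (GCGTG), to the ETS family core (CCGGAAG) or to the NRF1 motif, and a DRE core can lie inside an NRF1 match. *Ndufb4*, an accessory subunit of complex I (chr16:37654369-37654618, minus strand), had 2 DRE cores and 3 NRF1 matches counted over both strands. *Ndufv3*, an accessory subunit of the NADH-binding module (chr17:31519865-31520114, plus strand), had 2 DRE cores. *Uqcr11*, a small subunit of complex III (chr10:80406822-80407071, minus strand), had 1 DRE core and 1 ETS match, *Cox5b* of complex IV (chr1:36691237-36691486, plus strand) had 1 DRE core, and *Atp5k*, subunit e of the ATP synthase (chr5:108434400-108434649, minus strand), had 1 DRE core and 1 NRF1 match.
Ndufb4: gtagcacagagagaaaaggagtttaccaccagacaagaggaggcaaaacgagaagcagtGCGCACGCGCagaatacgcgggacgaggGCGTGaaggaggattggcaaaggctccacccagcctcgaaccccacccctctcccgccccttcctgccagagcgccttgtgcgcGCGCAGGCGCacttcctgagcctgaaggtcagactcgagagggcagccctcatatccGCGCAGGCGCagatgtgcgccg
Ndufv3: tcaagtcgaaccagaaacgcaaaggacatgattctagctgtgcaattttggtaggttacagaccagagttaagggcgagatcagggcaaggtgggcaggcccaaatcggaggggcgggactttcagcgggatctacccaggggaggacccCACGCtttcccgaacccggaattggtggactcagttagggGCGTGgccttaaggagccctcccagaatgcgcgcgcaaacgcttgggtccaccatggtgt
Uqcr11: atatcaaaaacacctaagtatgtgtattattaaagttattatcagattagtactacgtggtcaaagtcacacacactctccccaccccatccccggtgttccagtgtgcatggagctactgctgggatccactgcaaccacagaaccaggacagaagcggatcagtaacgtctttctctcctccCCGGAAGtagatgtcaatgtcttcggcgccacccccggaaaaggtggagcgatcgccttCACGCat
Cox5b: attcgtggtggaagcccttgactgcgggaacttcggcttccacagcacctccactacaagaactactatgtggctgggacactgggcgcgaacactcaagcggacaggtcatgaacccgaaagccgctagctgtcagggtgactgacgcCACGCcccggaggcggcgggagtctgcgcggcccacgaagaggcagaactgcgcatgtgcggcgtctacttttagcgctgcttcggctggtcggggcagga
Atp5k: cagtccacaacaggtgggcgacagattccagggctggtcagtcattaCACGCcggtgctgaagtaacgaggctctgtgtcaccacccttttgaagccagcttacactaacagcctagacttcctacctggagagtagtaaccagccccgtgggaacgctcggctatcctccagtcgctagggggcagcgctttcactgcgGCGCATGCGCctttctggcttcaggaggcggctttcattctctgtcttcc

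The DRE core stood in the window of 27 of the 69 members (39.1%) and of 7642 of all 27025 promoters in the table (28.3%). The ETS core stood in 11 members (15.9%, against 7.07% of all promoters), and the NRF1 motif in 12 (17.4%, against 3.87%). These are matches of letters and not sites of binding. The shares were not adjusted for GC content, and whether the motifs go with the response was not tested. The windows of the pair called in every setting between 24 and 120 h of vehicle culture in both labels, *Atp5g1* (chr11:96075632-96075881, minus strand) and *Ndufs7* (chr10:80249199-80249448, plus strand), held none of the 3 motifs.
Atp5g1: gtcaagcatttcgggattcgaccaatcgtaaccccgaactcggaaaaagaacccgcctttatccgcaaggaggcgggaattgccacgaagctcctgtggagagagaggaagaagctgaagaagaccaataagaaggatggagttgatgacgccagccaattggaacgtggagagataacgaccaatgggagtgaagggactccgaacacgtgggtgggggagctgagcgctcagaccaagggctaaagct
Ndufs7: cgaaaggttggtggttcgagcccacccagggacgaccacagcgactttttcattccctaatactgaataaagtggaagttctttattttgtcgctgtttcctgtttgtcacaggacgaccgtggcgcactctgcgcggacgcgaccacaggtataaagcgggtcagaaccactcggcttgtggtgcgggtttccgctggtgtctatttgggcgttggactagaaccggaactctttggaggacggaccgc

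Levels per transcript length are mean CPM per kilobase over the 72 vehicle libraries. The catalytic β subunit of the ATP synthase, *Atp5b*, stood highest at 897, ahead of its α partner *Atp5a1* at 445. The highest member of each other complex was *Cox6a1* (641) in complex IV, *Uqcrq* (550) in complex III, *Ndufa4* (492) among genes with complex I symbols, and *Sdhb* (158), the iron-sulfur subunit, in complex II. The other succinate dehydrogenase genes stood at 131.1 for the flavoprotein *Sdha*, 120 for *Sdhd* and 56.1 for *Sdhc*, the last 2 being membrane anchors. Complex III ranged down to *Uqcrb* at 76.2, with the core subunit *Uqcrc1* at 214 and the Rieske protein *Uqcrfs1* at 149. Among the core subunits of complex I, *Ndufv1* stood at 100.7, *Ndufs7* at 93.9 and *Ndufs1*, the largest of them, at only 15.1. The mitochondrial acyl carrier protein *Ndufab1* stood at 12.1. Pairs that mapped to several places were not counted, and *Ndufab1* has a processed pseudogene among the genes left out. The effect of this on the levels was not tested.

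Of the subunits that come in tissue-specific forms, those usual in liver dominated. *Cox4i1* stood at 423 CPM per kilobase and the form of lung, *Cox4i2*, at 1.63. *Cox7a2* and its relative *Cox7a2l*, known from supercomplexes of III and IV, stood at 184 and 112.4, and the muscle form *Cox7a1* at 3.07. *Cox8a* stood at 336, against 0.106 for the muscle form *Cox8b*, which had counts in 39 libraries. The muscle form *Cox6a2* stood at 0.0528 and was at 0 in 96 libraries. *Ndufa4l2*, a hypoxia-inducible relative of *Ndufa4*, stood at 2.35 and *Cox6b2*, a testis form, at 0.540. *Cox7b2*, *Cox8c* and the second gene row named *Atp5o* (ENSMUSG00000116933) had no count in any library. These 3 genes, *Cox6a2* and *Cox8b* passed the filter on low counts in no comparison, so 81 of the 86 members could be tested at all. The 0 of that second *Atp5o* row does not show that it is silent, since exons of other genes overlap 100% of its exon bases.

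The members' counts were divided unequally among the 5 complexes. Complex V held 39.6% to 48.7% (median 42.5% over all libraries), complex I 19.9% to 24.7% (median 22.1%), complex IV 13.8% to 18.2% (median 16.5%), complex III 9.23% to 12.7% (median 11.3%) and complex II 5.58% to 10.3% (median 7.71%). Exons of another annotated gene overlapped those of 31 members. The overlap covered 100% of the exon bases of the second *Atp5o* row (ENSMUSG00000116933), 47.9% of the *Atp5o* row with counts (ENSMUSG00000022956), 39% of *Ndufb6* and 29.98% of *Ndufa13*. As the counts carry no strand, pairs in the overlap could not be assigned to *Atp5o* or to a neighbour, and the values of *Atp5o* are uncertain.

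Among the 18 comparisons of TCDD with vehicle, that at 8 h in WT held the most called members. Of 79 members tested, 55 fell and *Ndufs1* rose, counting as differentially expressed genes (DEGs) those with an adjusted p under 0.05 (edgeR quasi-likelihood test, Benjamini-Hochberg over all genes tested) at a minimum fold change of 1.5. In that comparison 37.4% of all genes tested were DEGs, in either direction. The median log2 fold change of the members was −0.76, against 0.00 over all genes. At the adjusted p alone 67 members were called (background 45.5%), and the treatment groups of 56 did not overlap (background 43%). The members took 1.27%, 1.23%, 1.076% and 1.02% of the counts of the vehicle libraries and 0.797%, 0.861%, 0.734% and 0.753% of the TCDD libraries. Every TCDD library lay below every vehicle library, as was also the case in WT at 4 h, where no member was called.

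**Figure D1:**
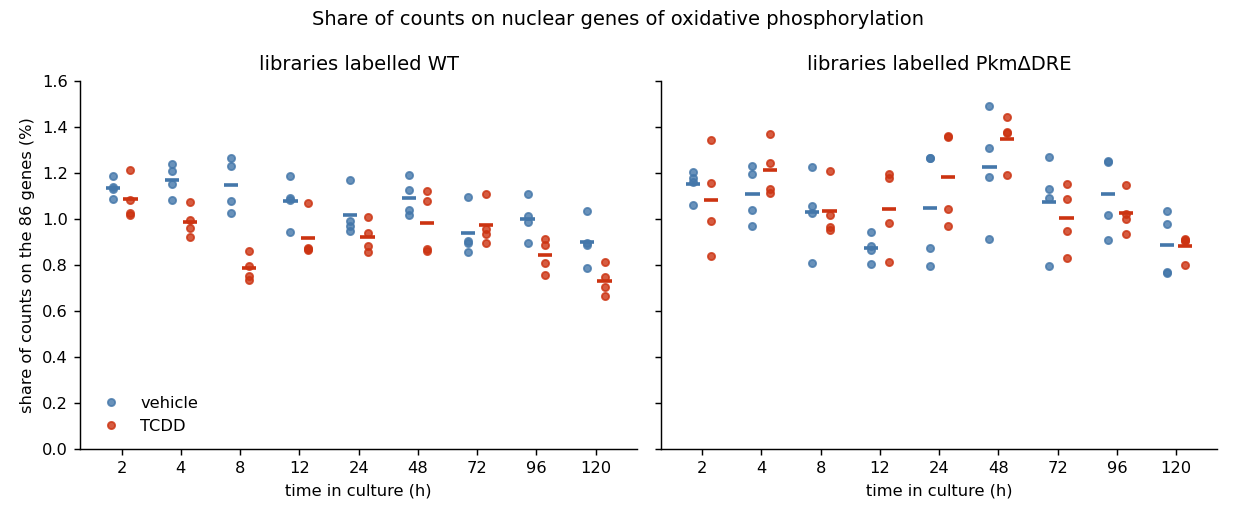
Share of the counts on genes taken by the 86 members in each library (vertical axis, percent, from 0) against hours in culture, for libraries labelled WT and PkmΔDRE with vehicle or TCDD. Points are libraries and bars are means of 4 libraries, and the WT groups at 8 h stand apart, with 1.02% to 1.27% for vehicle and 0.734% to 0.861% for TCDD. The WT groups at 4 h do not overlap either, with 1.082% to 1.238% for vehicle and 0.923% to 1.075% for TCDD.

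All 5 complexes took part. DEGs that fell numbered 26 of 38 members tested in complex I, 3 of 4 in complex II, 6 of 8 in complex III, 9 of 12 in complex IV and 11 of 17 in complex V. The medians of the log2 fold change were −0.80, −0.66, −0.73, −0.76 and −0.65 in that order. The difference between complexes was not tested.

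In complex I, the accessory subunit *Ndufb4* held 55.7, 54.2, 43.3 and 40.5 CPM with vehicle and 31.3, 16.2, 14.04 and 18.2 with TCDD. Every TCDD library lay below the lowest vehicle library, and the gene fell by 1.17 on the log2 scale (SE 0.234, adjusted p = 0.00243). *Ndufv3* held 93.5, 80.5, 60.8 and 46.4 CPM with vehicle and 44.3, 28.2, 18.6 and 25.4 with TCDD. These groups lay close but did not overlap, and *Ndufv3* fell by 1.15 (SE 0.264, adjusted p = 0.00443). *Ndufa11*, a membrane-arm subunit, went from 35.6, 24.2, 19.1 and 19.8 CPM to 17.3, 5.30, 7.99 and 7.58, and fell by 1.27 (SE 0.336, adjusted p = 0.00926). The largest value of its TCDD group stayed just under the smallest of the vehicle group. *Ndufv1*, which carries the NADH site, held 285, 274, 182 and 179 CPM with vehicle and 153, 128.7, 82.6 and 103.2 with TCDD and fell by 0.85 (SE 0.210, adjusted p = 0.00631). *Ndufab1* (log2 fold change −0.02, SE 0.195) and *Ndufa4l2* (−0.19, SE 0.633) did not pass the test, and *Ndufa4* passed the adjusted p of 0.0266 with a change of −0.52, short of the fold threshold.

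*Ndufs1*, the large iron-sulfur subunit of the NADH-oxidizing arm, was the exception. It held 14.5, 16.3, 21.9 and 21.6 CPM with vehicle and 24.4, 43.9, 54.02 and 47.6 with TCDD. Every TCDD library was above the highest vehicle library, and *Ndufs1* rose by 1.32 on the log2 scale (SE 0.247, adjusted p = 0.00193). Its level varied widely between WT vehicle libraries of other times, from 28.5, 37.3, 63.9 and 35.6 CPM at 4 h to 43.2, 33.6, 51.9 and 12.5 CPM at 12 h. All 8 of these libraries but the last lay above the highest vehicle library at 8 h.

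In complex II the membrane anchor *Sdhd* held 177, 185, 178 and 148 CPM with vehicle and 113.9, 78.7, 84.2 and 92.7 with TCDD. Its groups were well apart and it fell by 0.77 (SE 0.141, adjusted p = 0.0018). *Sdhc* fell by 0.68 (adjusted p = 0.00731) and *Sdhb* by 0.64 (adjusted p = 0.0266), likewise without overlap. The catalytic subunit *Sdha* held 455, 457, 377 and 312 CPM against 330, 320, 332 and 301, so that the groups overlapped and the change of −0.19 (SE 0.142) did not pass (adjusted p = 0.282).

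In complex III *Uqcr11* held 183, 136.6, 118.7 and 94.1 CPM with vehicle and 85.4, 44.4, 30.6 and 38.8 with TCDD. The groups did not overlap, and *Uqcr11* fell by 1.30 (SE 0.285, adjusted p = 0.00354). *Uqcrq*, a small accessory subunit, held 456, 394, 291 and 249.3 CPM against 227, 149, 116.7 and 144.5 and fell by 1.01 (SE 0.220, adjusted p = 0.00355). The core subunit *Uqcrc1* fell by 0.65 (adjusted p = 0.0121). The Rieske protein *Uqcrfs1* reached an adjusted p of 0.00569 with a change of −0.54, short of the fold threshold.

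In complex IV *Cox5b*, a zinc-binding subunit, held 286, 227, 172.2 and 140.6 CPM with vehicle and 147, 64.1, 59.1 and 67.7 with TCDD. A single TCDD library, at 147, reached into the vehicle range, and *Cox5b* fell by 1.17 (SE 0.287, adjusted p = 0.00607). *Cox4i1* held 506, 489, 361 and 313 CPM against 275, 216, 165 and 186 and fell by 0.86 (SE 0.189, adjusted p = 0.00363). *Cox7a2*, *Cox8a*, *Cox7a2l* and *Cox6a1* fell by 0.79, 0.78, 0.74 and 0.74 (adjusted p = 0.0117, 0.00631, 0.00262 and 0.00766). The muscle form *Cox7a1*, under 3 CPM, had a change of −1.46 that did not pass (SE 0.666, adjusted p = 0.0886).

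In complex V *Atp5k* held 55.2, 51.1, 44.6 and 32.8 CPM with vehicle and 35.8, 11.2, 7.25 and 12.3 with TCDD. The highest TCDD library lay above the lowest vehicle library, and *Atp5k* fell by 1.37 (SE 0.388, adjusted p = 0.013). *Atp5e*, subunit ε of the ATP synthase, held 256, 214, 182 and 167 CPM against 145, 71.2, 53.1 and 66.1 and fell by 1.17 without overlap (SE 0.262, adjusted p = 0.00403). *Atp5b* held 2323, 2295, 1565 and 1516 CPM against 1294, 1285, 896 and 1037, again without overlap, and fell by 0.65 (SE 0.187, adjusted p = 0.0143), and *Atp5a1* fell by 0.59 (adjusted p = 0.0117). All 3 genes for the proton-carrying c subunit fell, *Atp5g3* by 1.06, *Atp5g1* by 0.86 and *Atp5g2* by 0.85 (adjusted p = 0.00248, 0.00226 and 0.00196). The uncertain *Atp5o* (ENSMUSG00000022956), at 7.48 to 9.66 CPM with vehicle and 1.03 to 6.44 with TCDD, had a change of −1.40 (SE 0.453, adjusted p = 0.024).

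**Figure D2:**
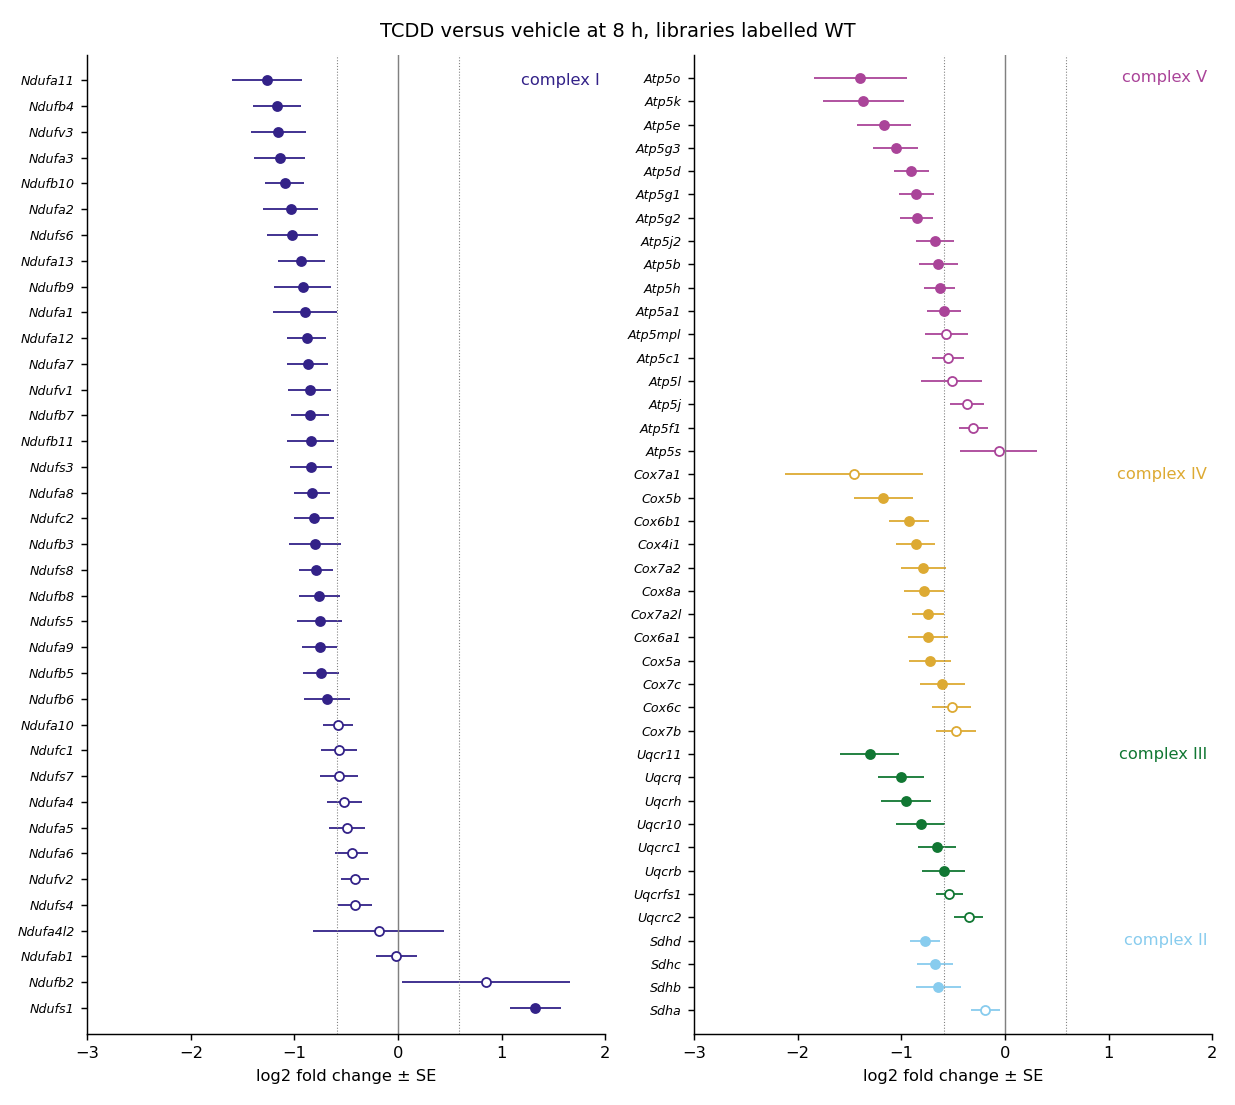
Log2 fold change of TCDD over vehicle at 8 h in libraries labelled WT for 78 of the 79 members tested, grouped by complex, with bars of 1 standard error from edgeR. Filled points are DEGs and dotted lines mark a fold change of 1.5 either way, with *Ndufs1* at 1.32 the single DEG on the right and *Atp5o*, *Atp5k* and *Uqcr11* the DEGs farthest to the left, at −1.40, −1.37 and −1.30. The open points of *Cox7a1*, at −1.46, and of the faint *Ndufb2*, on the right, have wide bars.

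Transcript length and the share of pairs on no gene moved with the response at 8 h in WT. The members' transcripts are short, with a median of 709 bases against 2684 over all genes tested. Among other genes under 1000 bases the median log2 fold change was −0.59 and 34.1% were DEGs that fell, and among those of 4000 bases or more it was 0.74 and 46.2% were DEGs that rose. The 52 members under 1000 bases had a median of −0.82 and 40 DEGs that fell. Once the trend with length was removed, in an alternative added after the data were examined, 10 of the 79 members remained DEGs and all were among the 56: *Ndufv3*, *Ndufb4*, *Ndufv1*, *Ndufa13*, *Sdhc*, *Uqcr11*, *Cox5b*, *Atp5a1* and *Atp5k* fell, and *Ndufs1* rose by 1.23. Pairs mapped to no gene made up 6.00%, 4.89%, 5.60% and 4.90% in the vehicle libraries and 21.9%, 8.64%, 8.36% and 10.7% in the TCDD libraries, where the library at 21.9% also had the most unmapped pairs, 23.6%. Without that library 65 members were DEGs, and with a covariate for pairs on no gene 68 were. Every TCDD library lay above every vehicle library in that share, so the covariate cannot cleanly separate it from treatment. The part of length in the result was not tested beyond the removal of its trend. *Ndufb4*, *Ndufv3*, *Ndufs1*, *Uqcr11*, *Cox5b* and *Atp5k* were DEGs in all 17 settings.

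Other gene groups gave the setting of this response, with no allowance made for the trend with transcript length. Of 77 cytosolic ribosomal protein genes tested, 56 fell (median log2 fold change −0.73), and of 77 mitochondrial ribosomal protein genes 39 fell and 2 rose (median −0.59). Among 39 assembly factors of the complexes 11 fell and 2 rose (median −0.36), among 15 genes of cytochrome *c*, ubiquinone synthesis and electron transfer 5 fell and 1 rose (median −0.48), and among 14 TCA cycle enzymes 2 fell and 4 rose (median −0.33). *Cyc1*, the cytochrome *c*1 gene that the symbol rule leaves out of complex III, fell by 0.74 (adjusted p = 0.00493). Of 13 regulators of mitochondrial biogenesis 6 rose and 1 fell (median 0.36). The 8 hypoxia-inducible genes tested had 2 up and none down (median 0.48), and all 4 AHR targets tested rose. *Atpif1*, the inhibitor of the ATP synthase, had a change of −0.69 that did not pass the test.

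None of the subunits encoded in mitochondrial DNA was called lower at 8 h. Of 11 tested, *mt-Co1* rose by 0.60, *mt-Nd4* by 0.61 and *mt-Nd5* by 0.77, none fell, and the median was 0.29. Counts of mitochondrially encoded subunits were 2.03, 2.38, 2.59 and 3.04 times those of the nuclear members in the vehicle libraries and 3.50, 5.71, 7.89 and 6.31 times in the TCDD libraries. The ratio was higher in every TCDD library than in any vehicle library, which also held in WT at 4 h.

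Of the 8 hepatocyte markers 3 fell and 1 rose, and their summed level ran from 79850 to 97930 CPM with vehicle and from 65150 to 69850 with TCDD. Of 5 macrophage markers tested 3 fell, from summed levels of 155 to 208 CPM to 59.1 to 113.7 CPM. None of the endothelial, stellate, cholangiocyte and proliferation markers tested was a DEG, with summed levels of 95.5 to 153, 0.570 to 3.29, 18.1 to 38.1 and 1.05 to 3.09 CPM with vehicle and 87.2 to 140, 1.93 to 2.99, 20.1 to 32.2 and 1.14 to 2.31 CPM with TCDD. No marker of these 6 lists was at 0 in all 4 libraries of either group. Their part in the result was not tested.

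Other times in WT gave few or no DEGs among the members. At 96 h 15.1% of all genes tested were DEGs, against 6 of the 80 members tested, a smaller share. *Ndufs1* held 36.1, 23.8, 35.97 and 32.9 CPM with vehicle and 45.98, 47.2, 48.5 and 41.6 with TCDD, again with every TCDD library above every vehicle library, and rose by 0.61 (SE 0.123, adjusted p = 0.00433). *Ndufa11* went from 14.6, 18.9, 17.98 and 17.8 CPM to 9.46, 8.90, 11.03 and 11.6 and fell by 0.67 (SE 0.136, adjusted p = 0.00462). *Ndufb9* fell by 0.77 and *Atp5e* by 0.64 (adjusted p = 0.00317 and 0.0126), both without overlap. The faint *Ndufb2* rose by 1.00 (adjusted p = 0.0346), at 0.954 to 2.02 CPM with vehicle and 1.66 to 2.98 with TCDD. The faint *Cox6b2* held 0.673, 0.520, 0.797 and 1.04 CPM against 0, 0.255, 0.0908 and 0.141, with an adjusted p of 0.0115. At the adjusted p alone 35 members were called (background 32.8%), 33 of them downwards, and the median log2 fold change was −0.30.

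At 120 h in WT, with 1.46% of all genes called, the DEGs were *Atp5k* and *Atp5e*. *Atp5k* held 12.1, 19.98, 16.1 and 12.98 CPM with vehicle and 9.20, 5.18, 6.88 and 6.29 with TCDD and fell by 1.20 (SE 0.217, adjusted p = 0.0246). *Atp5e* held 51.4, 82.3, 57.3 and 58.7 CPM against 39.7, 35.6, 35.02 and 28.2 and fell by 0.90 (SE 0.163, adjusted p = 0.0246). Neither gene's groups overlapped. Between 0 and 5 members were DEGs when a library was left out. The count was 0 without TCDD library 2, TCDD library 4 or vehicle library 4, 1 without TCDD library 1 and 5 without TCDD library 3. *Atp5e* thus fell at 8, 96 and 120 h, and *Ndufs1* rose at 8 and 96 h. These comparisons share no libraries, but the labels do not show whether they share animals or isolations. With the length trend removed *Atp5e* was a DEG at none of these times, and at 120 h *Atp5k* alone was called.

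No member was a DEG in WT at 2, 4, 12, 24, 48 or 72 h, where 0.0%, 0.0%, 0.0321%, 0.373%, 0.00763% and 0.0% of all genes tested were called. By edgeR at an unadjusted p under 0.05, 2, 37, 15, 2, 6 and 0 members passed at these times, beside 1.37%, 17.1%, 2.63%, 12.3%, 2.57% and 2.06% of all genes. DESeq2 called 1 member at 4 h, *Ndufa2*, and 1 at 48 h, the uncertain *Atp5o*. The medians of the members were −0.01, −0.37, −0.29, −0.16, −0.19 and 0.14.

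In PkmΔDRE no member was a DEG at any time. The shares of all genes called were 0.0%, 0.0%, 0.106%, 0.024%, 0.016%, 0.404%, 1.13%, 0.0793% and 0.633% from 2 to 120 h. By edgeR at an unadjusted p under 0.05, 1, 0, 1, 31, 0, 0, 0, 1 and 3 members passed, beside 14.2%, 2.4%, 4.78%, 9.53%, 1.29%, 6.62%, 10.7%, 7.2% and 7.44% of all genes. The medians of the members were −0.13, 0.32, −0.02, 0.60, 0.21, 0.11, −0.17, −0.38 and 0.01. At 8 h *Uqcr11* held 87.7, 43.2, 75.2 and 122.9 CPM with vehicle and 127.8, 77.5, 64.9 and 58.6 with TCDD, and *Ndufs1* held 38.4, 52.8, 41.8 and 12.3 CPM against 21.2, 56.7, 35.6 and 34.2. The groups of both genes overlapped broadly (log2 fold change 0.07, SE 0.293, and 0.09, SE 0.420). At 12 h *Uqcr11* held 49.5, 48.1, 42.7 and 41.9 CPM with vehicle and 140.99, 45.1, 151 and 66.4 with TCDD, where a pair of TCDD libraries stood high and the lowest lay within the vehicle range.

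An interaction term at each time compared the TCDD response of both labels. No member passed, and the shares of all genes called were 0.0% at 2, 4, 8, 12, 24, 96 and 120 h, 0.00715% at 48 h and 0.00695% at 72 h. At an unadjusted p under 0.05, edgeR gave 1, 36, 31, 43, 2, 8, 0, 0 and 28 members from 2 to 120 h, beside 0.829%, 8.98%, 15.9%, 7.25%, 6.24%, 1.25%, 2.09%, 13.1% and 3.15% of all genes. At 8 h the change of *Uqcr11* was 1.25 higher on the log2 scale in PkmΔDRE than in WT (SE 0.433, adjusted p = 0.292), that of *Ndufb4* 1.15 higher (SE 0.369, adjusted p = 0.292) and that of *Ndufs1* −1.35 (SE 0.528, adjusted p = 0.292). DESeq2 called 3 members, *Ndufa1*, *Uqcrb* and *Atp5k*, all at 120 h. Without the filter on low counts edgeR called 7, all at 8 h: *Ndufs1*, *Ndufb4*, *Uqcr11*, *Uqcrq*, *Cox5b*, *Atp5e* and *Atp5g3*. Calls of a difference between the labels thus depended on the setting.

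**Figure D3:**
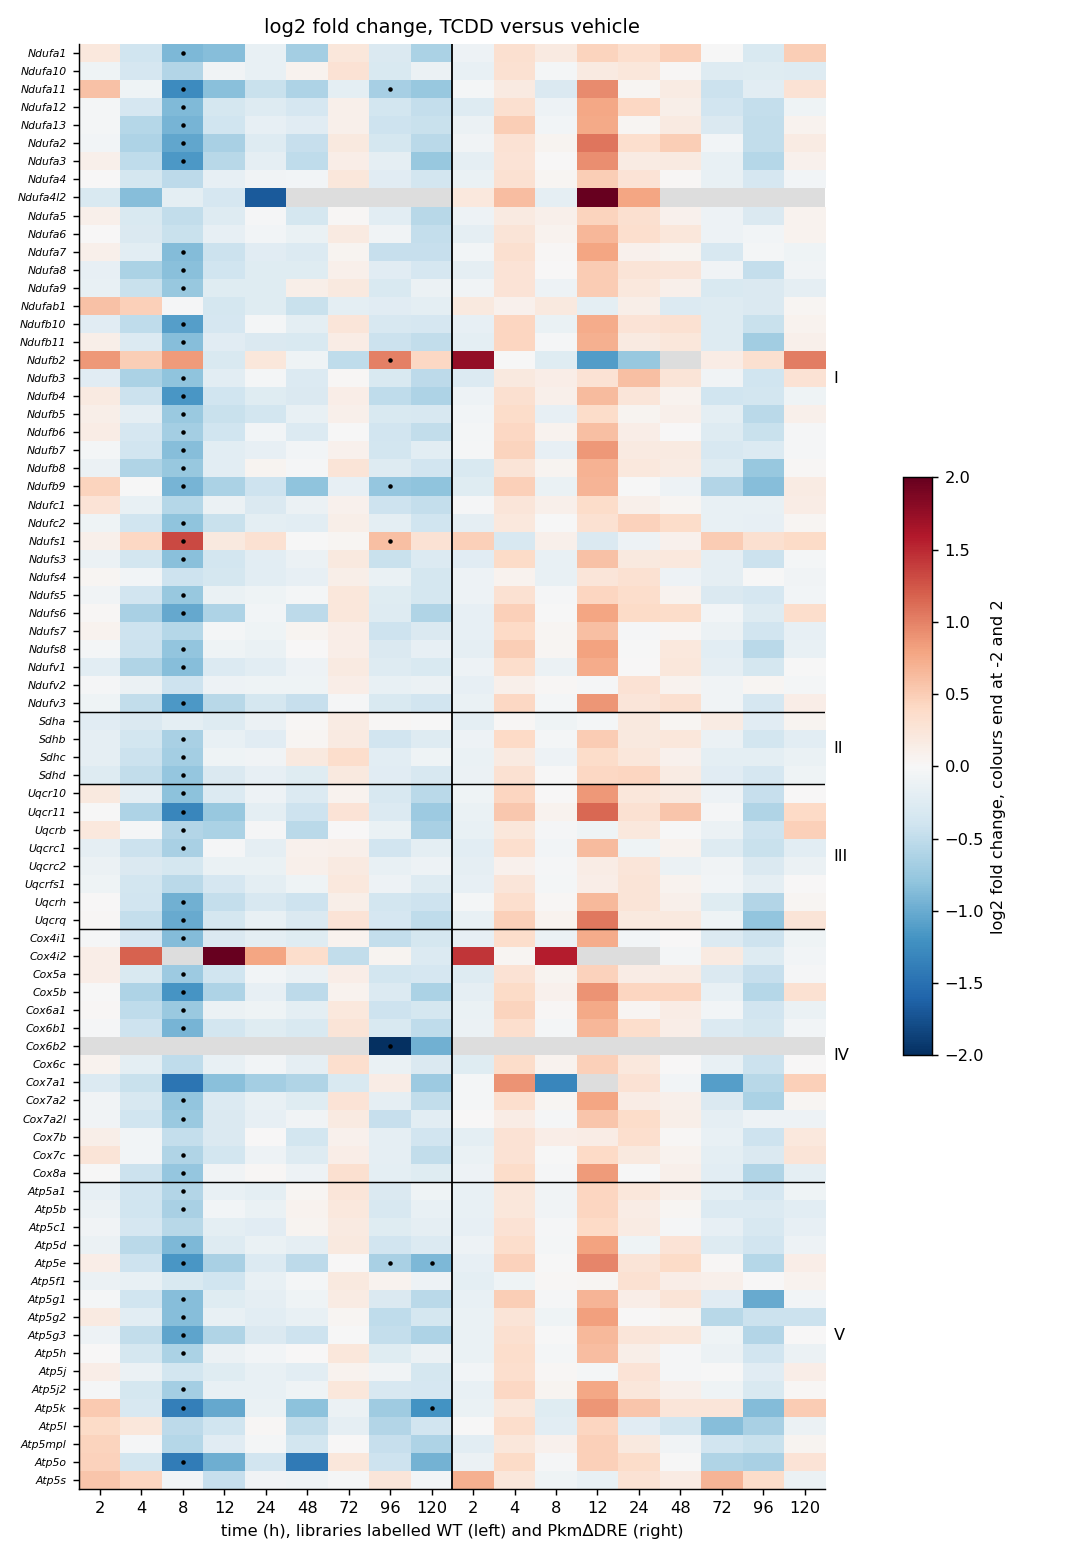
Log2 fold change of TCDD over vehicle for 80 of the 81 members tested (rows, by complex) in 18 comparisons (columns, 9 times for libraries labelled WT and 9 for PkmΔDRE), with colours ending at −2 and 2. Dots mark DEGs and grey cells were not tested, and the dots lie in the WT columns of 8 h (55), 96 h (6) and 120 h (2).

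Time in culture moved the members without TCDD. Between 2 and 24 h of vehicle culture 66 of 81 members tested fell in WT and none rose, while 45.8% of all genes were called in either direction. By complex 29 fell in I, 4 in II, 7 in III, 11 in IV and 15 in V. The median log2 fold change was −0.91 for the members and 0.18 for all genes, and the groups of 64 of the members did not overlap (background 41.3%). In PkmΔDRE 52 fell and none rose (background 33.2%), namely 23, 4, 6, 8 and 11 in complexes I to V, with a median of −1.03 against 0.23 for all genes. The DEGs of both labels had 50 members in common, 75.8% of those in WT and 96.2% of those in PkmΔDRE. With most of the 81 members called in each label a large overlap follows from the counts alone, and it was not tested.

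*Sdha* had the lowest adjusted p of the members in both labels. It held 817, 944, 868 and 818 CPM at 2 h and 334, 300.1, 308 and 303 at 24 h in WT, a wide gap, and fell by 1.46 (SE 0.127, adjusted p = 3.19e-11). In PkmΔDRE it held 993, 659, 819 and 929 CPM and then 180, 249, 233 and 262, and fell by 1.83 (SE 0.247, adjusted p = 2.46e-06). *Sdhb*, *Sdhc* and *Sdhd* fell with it in WT, by 1.24, 1.15 and 0.79 (adjusted p = 1.81e-06, 5.49e-07 and 7.72e-05). *Cox7b*, a small subunit of complex IV, held 164, 195, 152 and 171 CPM at 2 h and 59.1, 57.9, 58.9 and 78.04 at 24 h in WT and fell by 1.43 (SE 0.150, adjusted p = 1.73e-09), and by 1.84 in PkmΔDRE (adjusted p = 1.52e-05). *Ndufv3* held 103.6, 116.7, 73.5 and 89.5 CPM and then 23.3, 23.2, 34.9 and 34.2 in WT and fell by 1.73 (SE 0.247, adjusted p = 6.19e-07). None of these groups overlapped.

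In complex III *Uqcrq* fell by 1.5 and *Uqcr11* by 1.46 in WT (adjusted p = 2.5e-07 and 4.8e-07), and in complex I *Ndufa13*, whose exons overlap another gene, fell by 1.47 (adjusted p = 8.33e-08). In PkmΔDRE *Ndufa6* fell by 1.58 and *Cox6c* by 1.5 (adjusted p = 8.36e-05 and 0.00185). The main subunits *Atp5b* and *Atp5a1* fell less in WT, by 0.74 and 0.87 (adjusted p = 0.00129 and 4.79e-05), as did *Cox4i1*, by 0.85 (adjusted p = 0.000369). Among the members that did not pass in WT were *Ndufab1* (0.29, adjusted p = 0.226), *Atp5g2* (−0.09, adjusted p = 0.722), *Cox7a2l* (−0.20, adjusted p = 0.305) and *Ndufs7* (−0.25, adjusted p = 0.248). *Atp5g2* held 95.6, 136.8, 107.9 and 122.3 CPM at 2 h and 96.8, 100.7, 91.6 and 147 at 24 h, with the groups fully interleaved.

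The scaling of the libraries bore on the size of this change. The trimmed mean of M-values (TMM) factors of WT vehicle libraries ran from 0.549 to 0.646 at 2 h, from 0.997 to 1.10 at 24 h and from 1.30 to 1.56 at 120 h. Scaling to the total count alone, an alternative added after the data were examined, moved the median of all genes from 0.18 to 0.95 in WT and that of the members from −0.91 to −0.13, so that the members lay 1.09 below all genes with TMM and 1.08 below with the total count. By total count 9 members fell and 2 rose in WT, *Atp5g2* and *Ndufab1* being the latter, and 5 fell and 3 rose in PkmΔDRE, *Ndufs7*, *Atp5g2* and *Ndufab1* being the latter. The members took 1.14% ± 0.0419 of the counts at 2 h and 1.02% ± 0.103 at 24 h in WT (SD, n = 4). *Sdha* fell by 0.69 even by total count.

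**Figure D4:**
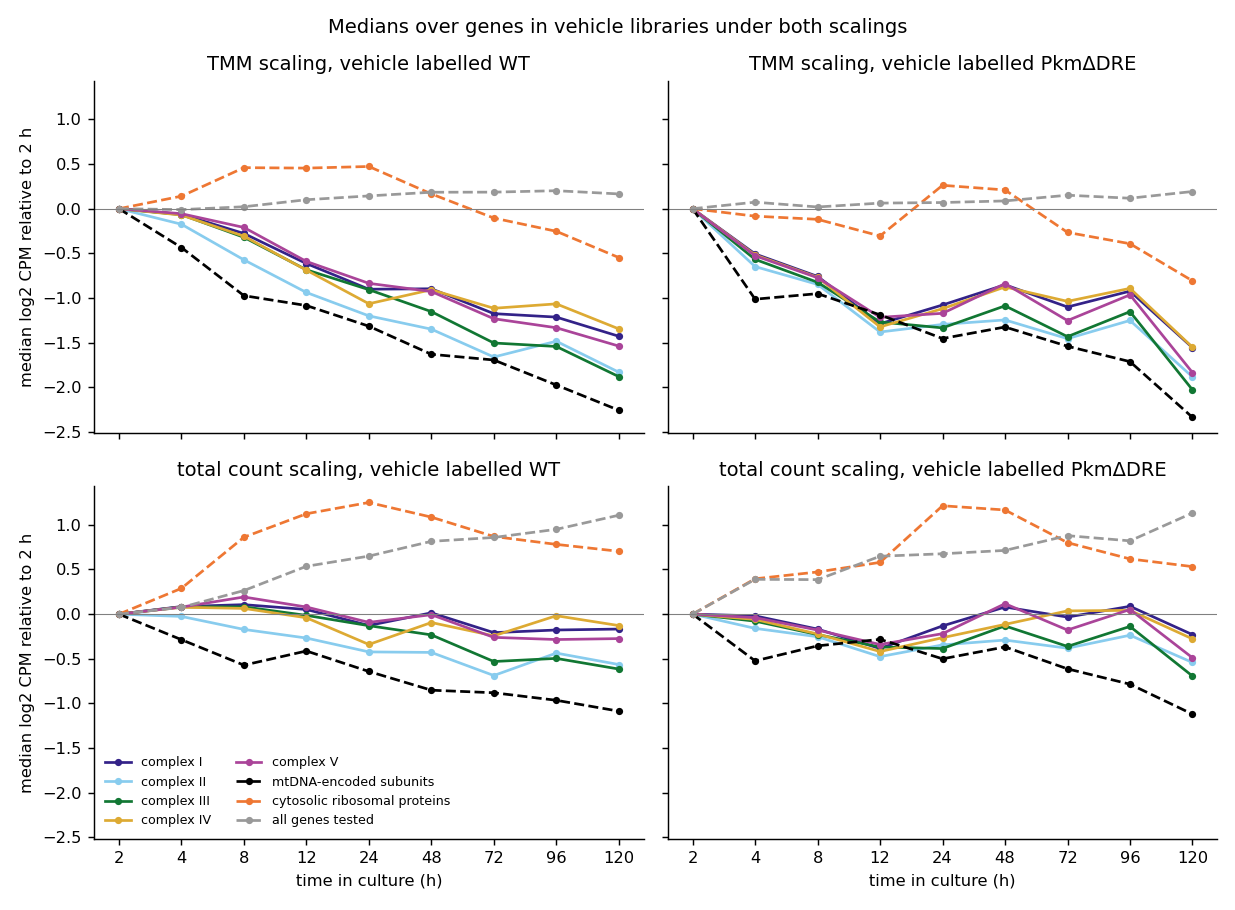
Median log2 CPM relative to 2 h (vertical axis) against hours of vehicle culture for each complex, for subunits encoded in mitochondrial DNA, for cytosolic ribosomal proteins and for all genes, in libraries labelled WT and PkmΔDRE. The top row is scaled by TMM and the bottom row by total count, and each curve is a median over genes of group means of 4 libraries.

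Over the same interval the mitochondrially encoded subunits went down as well, with 9 of 11 DEGs falling in WT (median −1.52) and 8 in PkmΔDRE (median −1.35). Of the hypoxia-inducible genes 7 of 10 fell in each label (medians −2.80 and −2.24). None of the cytosolic ribosomal protein genes fell, with 25 of 78 rising in WT and 7 in PkmΔDRE (medians 0.49 and 0.43), and of 77 mitochondrial ribosomal protein genes 11 rose and 2 fell in WT. TCA cycle enzymes split into 2 up and 5 down of 14 in WT. Assembly factors centred on −0.01, with 6 up and 4 down of 41. *Atpif1* rose, from 1.83, 2.75, 2.30 and 1.54 CPM at 2 h to 5.98, 7.74, 5.61 and 10.5 at 24 h in WT (log2 fold change 1.82, SE 0.288, adjusted p = 3.3e-06). In PkmΔDRE its change of 0.73 did not pass (adjusted p = 0.304).

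The hepatocyte markers fell further than the members over this interval, with 8 of 8 falling in WT (median −2.61) and 6 of 8 in PkmΔDRE (median −2.68). Stellate markers had 2 up of 7, cholangiocyte markers 3 up and 2 down of 5 and proliferation markers 3 up of 4 in WT. Their summed levels ran from 1.29 to 5.39, from 62.1 to 146 and from 0.916 to 2.12 CPM at 2 h, and from 5.17 to 9.42, from 77.3 to 153 and from 11.7 to 21.7 CPM at 24 h. At 2 h 1 stellate and 1 proliferation marker were at 0 in all 4 libraries. Of the macrophage markers 3 of 6 and of the endothelial markers 3 of 5 fell. The part of these cells in the result was not tested.

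From 24 to 120 h of vehicle culture 29 members fell in WT, and *Cox6b2* rose, of 81 tested (background 35.6%). The median was −0.51 against 0.11 for all genes. By complex 12 fell in I, 2 in II, 5 in III, 1 in IV and 9 in V. In PkmΔDRE 19 fell and none rose (background 23.4%), with a median of −0.71 against 0.03. Those that fell numbered 9 in complex I, 5 in III, 1 in IV and 4 in V, with none in complex II. The background counts calls in either direction, and in both labels the share of members called lay close to it. Scaled to the total count, 5 members fell and 4 rose in WT and 8 fell and 1 rose in PkmΔDRE, and the medians of complexes I and IV in WT were 0.0205 and 0.084. With TMM scaling 14 of the DEGs that fell were common to both labels, 48.3% of those in WT and 73.7% of those in PkmΔDRE. The size of this overlap was not tested.

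*Atp5g1* and *Ndufs7* fell in both labels under every one of 21 settings. *Atp5g1* held 161.2 ± 30.83 CPM (SD, n = 4) at 24 h and 47.7, 90.2, 50.1 and 48.4 at 120 h in WT, with no overlap, and fell by 1.40 (SE 0.213, adjusted p = 3.98e-06). In PkmΔDRE it went from 287, 116.9, 101.9 and 240 CPM to 69.3, 43.9, 40.2 and 59.01, again without overlap, and fell by 1.86 (SE 0.455, adjusted p = 0.00394). *Ndufs7*, a core iron-sulfur subunit near the ubiquinone site, held 69.5, 71.8, 65.6 and 103.2 CPM and then 29.1, 40.8, 35.2 and 33.1 in WT and fell by 1.12 (SE 0.179, adjusted p = 9.27e-06). In PkmΔDRE it went from 175, 54.8, 62.9 and 137.3 CPM to 48.5, 23.4, 24.4 and 43.6 and fell by 1.67 (SE 0.375, adjusted p = 0.00204). In the PkmΔDRE group at 24 h libraries 1 and 4 lay well above libraries 2 and 3 for both genes. *Uqcrfs1*, *Ndufa8* and *Sdhd* fell in WT by 1.04, 1.08 and 1.00 (adjusted p = 1.18e-05, 1.31e-05 and 5.39e-06), and *Ndufb9*, *Cox7a2* and *Atp5g3* in PkmΔDRE by 1.39, 1.16 and 1.15 (adjusted p = 0.0228, 0.0227 and 0.0141).

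Some of these calls rested on few counts or few libraries. *Cox6b2* held 0, 0, 0 and 0.118 CPM at 24 h and 0.693, 0.445, 0.480 and 0.639 at 120 h in WT, so that its fitted change is no measure of size. *Ndufa4l2* held 0.102, 0.510, 27.3 and 1.65 CPM at 24 h and 0, 0, 0.0343 and 0.261 at 120 h. The library at 27.3 carried the call, since without it the change went from −6.37 (adjusted p = 0.00405) to −3.02 and did not pass. In PkmΔDRE the count of 19 depended on single libraries. It was 5, 29, 37 and 3 without 24 h libraries 1 to 4 in turn, and 6 and 4 without 120 h libraries 2 and 3. In WT it was 48 without 120 h library 2, and between 24 and 2 h in PkmΔDRE it was 31 without 24 h library 2 and 25 without 24 h library 3.

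The 3 c subunit genes, whose proteins differ in their targeting sequence but give the same mature subunit, stood in other proportions at each of these times. In WT vehicle libraries *Atp5g1* made up 29.1% ± 0.704 of their summed CPM at 2 h, 26.9% ± 2.03 at 24 h and 20.2% ± 2.18 at 120 h (SD, n = 4). *Atp5g2* made up 11.8% ± 1.09, 18.1% ± 0.957 and 21.9% ± 2.41, and *Atp5g3* 59.1% ± 0.593, 55.1% ± 1.72 and 57.8% ± 1.09. In PkmΔDRE *Atp5g1* went from 32.4% to 29.03% and 19.7%, and *Atp5g2* from 15.1% to 21.6% and 26.5%. *Atp5g2* thus took a larger part than *Atp5g1* at 120 h in PkmΔDRE, while in WT the parts differed by less than their spread. These proportions were not tested.

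**Figure D5:**
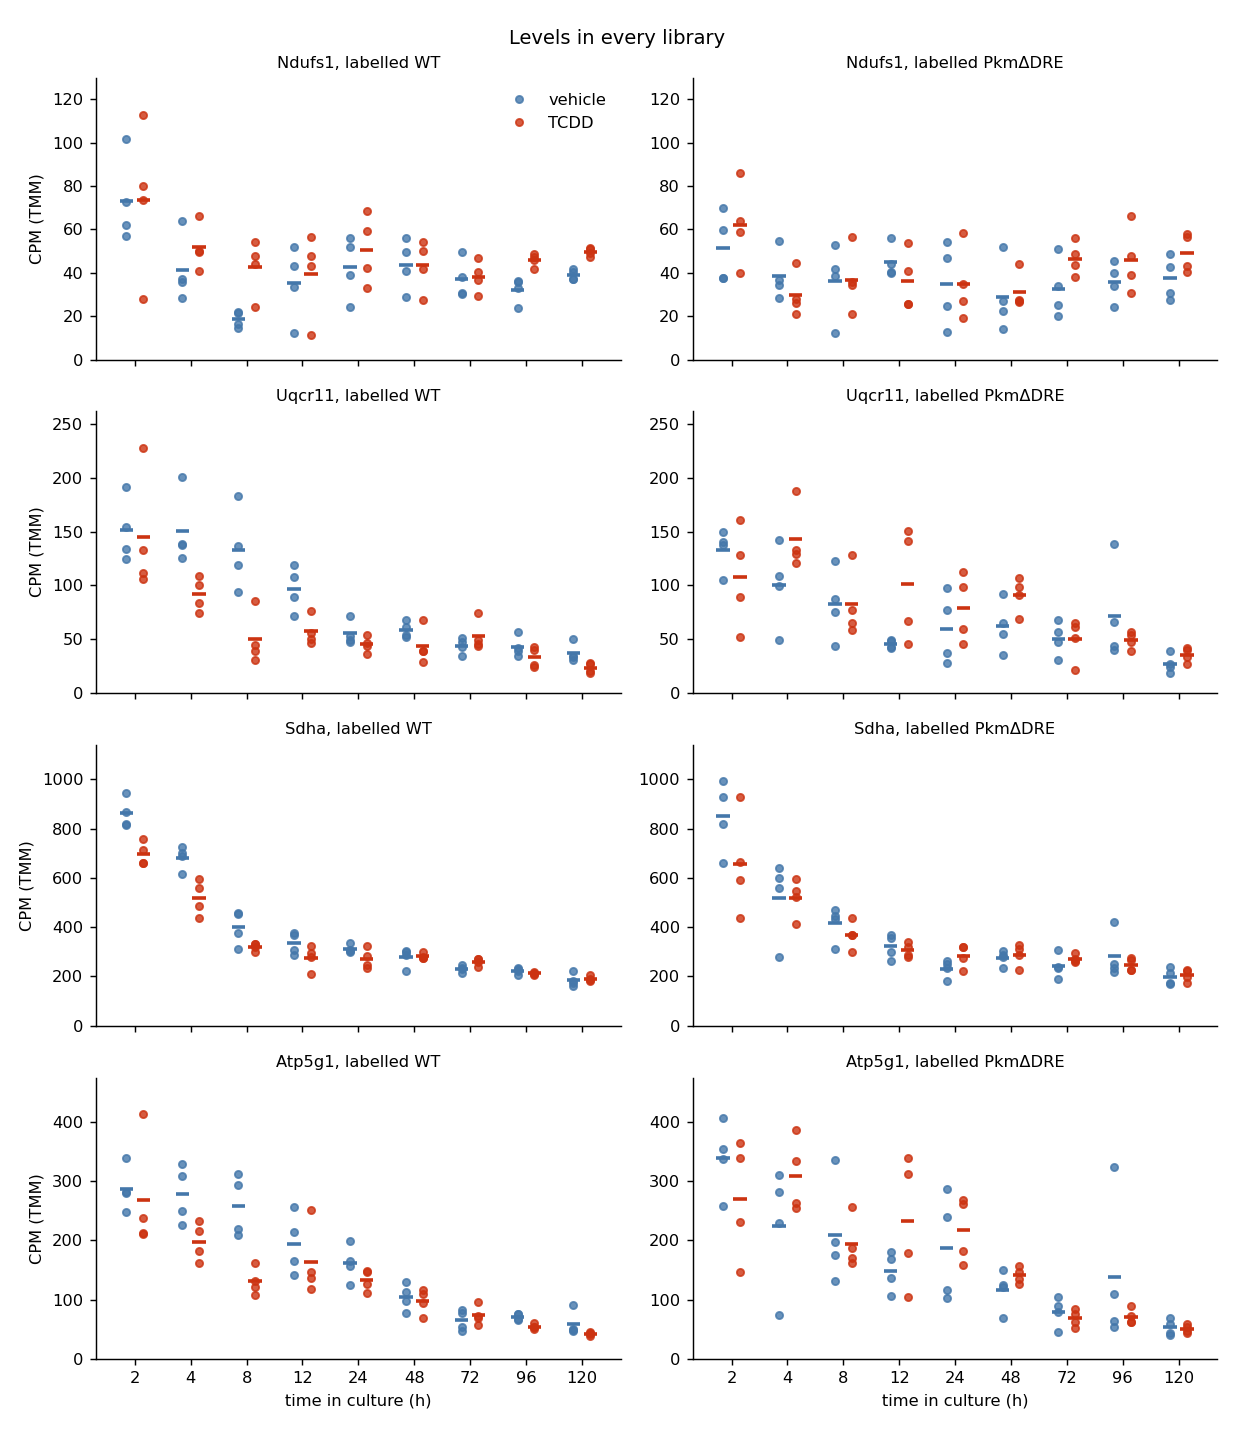
CPM of *Ndufs1*, *Uqcr11*, *Sdha* and *Atp5g1* in every library (vertical axes, points) against hours in culture, for libraries labelled WT and PkmΔDRE with vehicle or TCDD. In WT at 8 h *Ndufs1* stands at 14.5 to 21.9 with vehicle and 24.4 to 54.02 with TCDD and *Uqcr11* at 94.1 to 183 and 30.6 to 85.4, while *Sdha* with vehicle goes from 817 to 944 at 2 h to 300.1 to 334 at 24 h.

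In the late interval the other groups of genes moved down too. Of 78 cytosolic ribosomal protein genes 65 fell in WT and 73 in PkmΔDRE (medians −0.97 and −1.23), and of 77 mitochondrial ribosomal protein genes 53 and 44 fell. Assembly factors had 17 down of 41 in WT, TCA cycle enzymes 7 down and 1 up of 14, and mitochondrially encoded subunits 9 down of 11 (median −0.80). *Atpif1* rose again in WT, to 20.9, 26.1, 23.7 and 22.9 CPM (log2 fold change 1.70, SE 0.265, adjusted p = 5.85e-06), above every library at 24 h. Hepatocyte markers had 6 of 8 down in WT (median −1.74) and 5 of 8 in PkmΔDRE. Stellate markers had 4 of 7 up in WT, at summed levels of 21.2 to 145 CPM at 120 h, and cholangiocyte markers 4 of 5 up, at 538 to 977 CPM. The part of these cells in the result was not tested.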

How the data were processed

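RNA-Seq counts of 144 primary hepatocyte libraries were used. The authors mapped the pairs with STAR (GRCm39) and deposited, for each gene, the raw counts of uniquely mapped pairs without regard to strand, with no normalization. The submitters' processing notes name FastQC 0.11.3, Trimmomatic 0.39, STAR 2.7 and DESeq2. Lines that name no gene held 16.8% to 48.0% of the pairs and were left out. Symbols were given to 52083 of 55359 genes from the annotation at hand, which follows GRCm38.

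Here, counts were scaled by TMM, filtered with filterByExpr (count minimum 10, total minimum 15) and tested with the robust quasi-likelihood test of edgeR 4.0.16 under R 4.3.3, with Benjamini-Hochberg adjustment over all genes tested. DEGs passed an adjusted p of 0.05 and a 1.5-fold change. Each TCDD comparison used the 8 libraries of a label and time point, the interaction the 16 of a time point, and culture time the 36 vehicle libraries of a label. Printed CPM use TMM factors computed over all libraries. Counting depth limits only the rarest members, and the spread between libraries exceeded it. The tests were checked on counts simulated with a fixed spread between libraries. The interaction was not held to the criterion of recovered changes used for the other tests, so its power was not shown. Motifs were searched and figures drawn with Python 3.11.15, pandas 2.3.3, numpy 2.4.6 and matplotlib 3.10.9.

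The members and the gene lists were chosen with earlier results of these data known, and no list was tested as a set. The values of 1 member are counted in the totals but not reported here on their own. Named were fixed members by role, the up to 3 (culture time: 5) DEGs per comparison and direction with the largest change and no overlap, and the highest and lowest member of each complex by level. *Ndufb4*, *Ndufv3*, *Cox5b*, *Atp5k* at 8 h, *Atp5e* before 120 h and other DEGs outside this rule were chosen after their values were seen. Alternatives were RLE scaling, DESeq2 1.42.0, no filter, no fold threshold, a covariate for pairs on no gene, counts without the mitochondrial genome, removal of the GC trend, *Ndufa4* and *Ndufa4l2* moved to complex IV, and leaving out each library. Removal of the length trend and total count scaling were added after the data were examined.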

Additional observations from a re-analysis of the deposited data

Results flagged for a closer look

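In each group of 4 libraries the highest or lowest value was set against the others by Dixon's criterion (its 95% critical value) for the share of counts on the members, the share on mitochondrially encoded subunits and the share of pairs on no gene. A library lay beyond it 9 times, which is 8.33% of the groups tested, and chance alone gives about 1 in 20. No difference between the labels in the TCDD response of a member passed in the main edgeR fit, so none is listed. Other settings called some, as given above, and differences in level between the labels were not tested.

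The members took 1.07% of the counts in TCDD library 2 of WT at 12 h, against 0.866% to 0.876% in the other 3, and 0.798% in TCDD library 1 of PkmΔDRE at 120 h, against 0.905% to 0.914%. Mitochondrially encoded subunits took 2.22% in vehicle library 4 of WT at 12 h (others 3.85% to 4.06%), 2.80% in vehicle library 1 of WT at 72 h (others 2.16% to 2.23%) and 2.69% in TCDD library 2 of PkmΔDRE at 48 h (others 2.22% to 2.23%). Pairs on no gene made up 8.82% in TCDD library 3 of WT at 12 h (others 6.38% to 6.57%), 10.8% in vehicle library 4 of PkmΔDRE at 4 h (others 4.24% to 4.86%), 11.3% in vehicle library 2 of PkmΔDRE at 48 h (others 4.87% to 5.36%) and 8.55% in TCDD library 4 of PkmΔDRE at 72 h (others 5.82% to 6.26%). No member was a DEG of TCDD in any of the 6 comparisons these libraries belong to.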

How the results depend on the processing

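Counts of called members kept within 1.5 times, apart from the following, whose cause was not tested unless named. With the length trend removed there were 10 at 8 h, 3 at 96 h and 1 at 120 h of TCDD in WT, and 17 for 120 against 24 h in WT. With a covariate for pairs on no gene there were 3 at 96 h and 17 at 120 h of TCDD in WT, and 11 for 120 against 24 h in WT and 33 for 24 against 2 h in PkmΔDRE. DESeq2 gave 1 at 4 h, 1 at 48 h and 13 at 120 h in WT and 3 interactions. Without the filter there were 12 at 120 h in WT, 8 for 120 against 24 h in PkmΔDRE and 7 interactions. Without the fold threshold 35 were called at 96 h in WT, by construction. With the GC trend removed there were 38 for 120 against 24 h in PkmΔDRE. Total count scaling gave 11 and 9 in WT and 8 and 9 in PkmΔDRE for the early and late culture intervals.

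Medians per complex moved with the same settings. At 8 h in WT they were −0.30, −0.40, −0.31, −0.23 and −0.25 for complexes I to V without the length trend, all still below 0. By total count the medians of complexes I to V were −0.13, −0.42, −0.13, −0.47 and −0.0895 for 24 against 2 h and 0.0205, −0.17, −0.43, 0.084 and −0.17 for 120 against 24 h in WT, so that complexes I and IV changed sign in the latter. In PkmΔDRE they were −0.0721, −0.31, −0.33, −0.23 and −0.19, then −0.19, −0.0569, −0.58, −0.17 and −0.29. RLE scaling gave −1.33 for complex II and removal of the GC trend −1.23 for complex III at 24 against 2 h in WT, and removal of the length trend gave −0.13 in WT and −0.37 in PkmΔDRE for complex IV at 120 against 24 h. Among single genes, *Ndufa4* turned to 0.12 at 8 h in WT without the length trend, and *Ndufs1*, *Uqcrc1* and *Atp5b* turned to 0.0047, 0.0503 and 0.0374 at 24 against 2 h in WT by total count.

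Leaving out each library in turn gave 44 to 65 called members at 8 h, 4 to 11 at 96 h (11 without TCDD library 4) and 0 to 5 at 120 h of TCDD in WT, 0 to 2 at 72 h in PkmΔDRE (2, *Ndufs1* and *Atp5g2*, without vehicle library 1), and 0 in every fit of the other 14 comparisons and of the interaction. For culture time the ranges were 62 to 72 and 22 to 48 in WT and 25 to 63 and 3 to 37 in PkmΔDRE. No paired analysis was possible because the labels give no replicate numbers, and the order of deposit was not used in their place. Depth limits statements on *Cox6b2*, *Cox7a1*, *Cox4i2*, *Ndufa4l2* and *Ndufb2*, which stood near or under a few CPM.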
